A study of Notamacropus eugenii with 7 samples.

Results

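The data described here are the small RNA profiles of milk and of blood serum from tammar wallabies (Macropus eugenii, a marsupial) at day 175 of lactation. All 89 miRNAs listed in either of these 2 libraries were taken as members, of 102 listed in at least 1 of the 7 libraries of the series and 346 named in the deposited table. The series followed milk at 5 times of lactation and maternal serum at 2 of them. Both libraries of day 175 belong to phase 2B, the middle of the marsupial lactation cycle, and the question they address is how far the miRNAs of milk differ from those that circulate in the mother at the same time. The milk library was made from the skim milk of several females, pooled before RNA was isolated, with oxytocin given to start milk flow. The serum library came from blood of the tail vein of lactating females, who were also used for milk and were fewer in number than the females milked, and no gene or treatment was altered in either group. The study's methods name a serum kit for the blood samples and another kit for skim milk, while the sample labels repeat the milk protocol for serum, so fluid and isolation kit cannot be told apart here. The series record also mentions a duplicate at day 175, which was not analysed here, and whether the values include it is not known.

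miRNAs are short RNAs that are cut from hairpin precursors and guide a silencing complex to messenger RNAs that pair with the seed at their 5′ end. Outside cells they are carried in exosomes and other vesicles or bound to proteins, and both milk and serum hold them. Some miRNAs are found mainly in one kind of cell, such as miR-122 in liver, miR-223 in myeloid cells and the miR-200 family in epithelia such as the one that lines the milk-secreting alveoli of the mammary gland.

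The study designed PCR primers for 5 of the miRNAs that take large shares here, and their forward primers are shown because they are the study's own probes for these molecules. They are written 5′ to 3′.
miR-148: ccgggctcagtgcactacag
miR-30a: ggcgcgtgtaaacatcctcga
miR-141: cgcgcctaacactgtctggta
miR-22: ccaggcaagctgccagttg
miR-92: gcgcttattgcacttgtcccg
Each was used with a stem-loop primer for reverse transcription, whose last 6 bases are designed to pair with the 3′ end of the miRNA. For miR-141 it reads as follows, with those bases in capitals.
miR-141 stem-loop primer: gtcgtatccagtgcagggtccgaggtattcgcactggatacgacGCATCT
The corresponding ends were CTTCCA for miR-30a, GCAGTT for miR-22 and CAGGCC for miR-92. Of these 5 miRNAs, the first 4 were over 4-fold higher in milk and miR-92 was over 4-fold higher in serum, in the shares as deposited. The difference of miR-22, a log2 ratio of 2.09, was 0.98 with miR-10b left out of the denominators and 0.64 under centring, and so inside 4-fold.

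Each value is the percent of the annotated miRNA reads of its library. An entry of 0 stands for a share that rounded to 0 and an empty entry for a miRNA absent from that library. The values were rounded to 3 decimals, so each share is known to 0.0005 percentage points either way, and the interval this gives is printed with the ratios where it is wide. Numbers of reads are not part of the deposited values and cannot be had from them, and the library totals that the study states were not used here. With 1 library for each fluid there is no replicate error, no test was possible, and every difference given here is between these 2 libraries.

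The 2 libraries differed in how evenly the reads were spread. In milk 81 miRNAs were listed, the most abundant was miR-148 with 14.6%, the first 3 together took 38.1% and 5 miRNAs made up 50% of the reads. In serum 75 miRNAs were listed, 4 of them at 0, and miR-10b alone took 55.4%. The first 3 miRNAs of serum took 80.5% and 6 miRNAs made up 90%, against 18 in milk. Expressed as the effective number of miRNAs, the exponential of the Shannon entropy, milk had 16.8 and serum 5.19. Serum was thus dominated by a single miRNA at this day, while no miRNA of milk passed 14.6%. The listed shares added up to 95.8% in milk and 99.4% in serum, which leaves 4.18% and 0.65% that the entries do not account for.

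**Figure D1:**
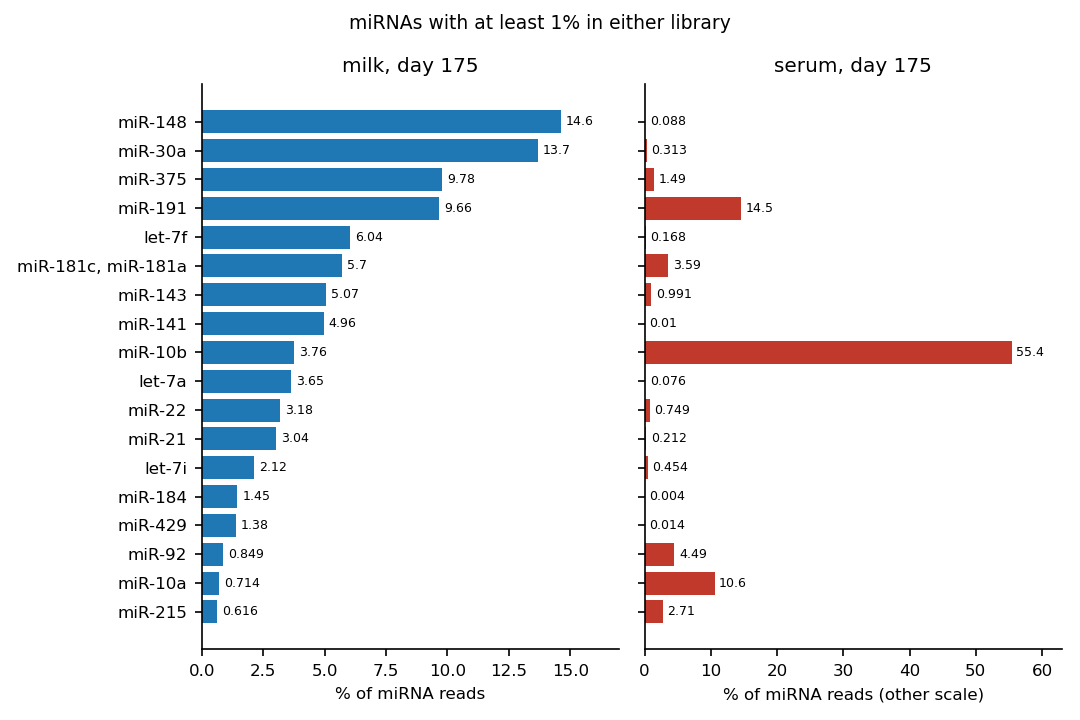
Share of miRNA reads (bars, %) of the 18 miRNAs with at least 1% in either library of day 175, in milk (left) and serum (right, other scale), ordered by the milk value. Each bar is 1 library, without error bars. miR-148 and miR-30a lead in milk, and miR-10b takes 55.4% of serum.

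Only part of the composition was common to both fluids. The sum over miRNAs of the smaller of the 2 shares was 26.1%, of which miR-191 alone gave 9.66 percentage points, miR-10b 3.76 and the entry shared by miR-181a and miR-181c 3.59. Of the 10 most abundant miRNAs of each fluid, 5 were the same (miR-191, miR-375, miR-10b, miR-143 and the joint miR-181 entry). Of the 18 miRNAs with at least 1% in either library, 4 had this share in both, 11 in milk alone and 3 in serum alone. The ranks of the 89 miRNAs nevertheless followed each other, with a Spearman correlation of 0.74 over miRNAs, absent entries taken as 0. The points share the same 2 libraries, and many of them are absent or near the rounding step in one fluid. Among those with at least 0.005% in both fluids the correlation was 0.59.

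For ratios, a miRNA was compared where it had at least 0.005% in the higher fluid, which held for 61 of the 89. The other 28 had 0.004% or less in both fluids. Of the 61, 31 were over 4-fold higher in milk, which is 50.8% of those compared, and 10 were over 4-fold higher in serum, which is 16.4%. The remaining 20 lay within 4-fold. Of the 61, 46 had at least 0.005% in both fluids. The others passed the minimum only through the fluid where they were higher, which favours a call. Among these, 5 were at 0 or absent in the lower fluid, which counted as past the limit by rule. The 31 miRNAs higher in milk took 72.3% of milk and 4.85% of serum, and the 10 higher in serum took 5.95% of milk and 73.4% of serum. Among the 56 compared miRNAs above 0 in both libraries, the median ratio was 3.39-fold in favour of milk, a log2 ratio of 1.76, with quartiles at -0.71 and 3.45. The extremes were 8.95 for miR-141 and -6.17 for miR-223. Next to the limit, miR-15a lay just inside at 4.18-fold (3.96 to 4.43 from rounding) and miR-183 just outside at 3.50-fold on the milk side. On the serum side miR-215 lay just inside at 4.40-fold and miR-222a, at 0.008% and 0.002%, gave 4-fold with a rounding interval from 3 to 5.67, so its side of the limit is not determined.

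**Figure D2:**
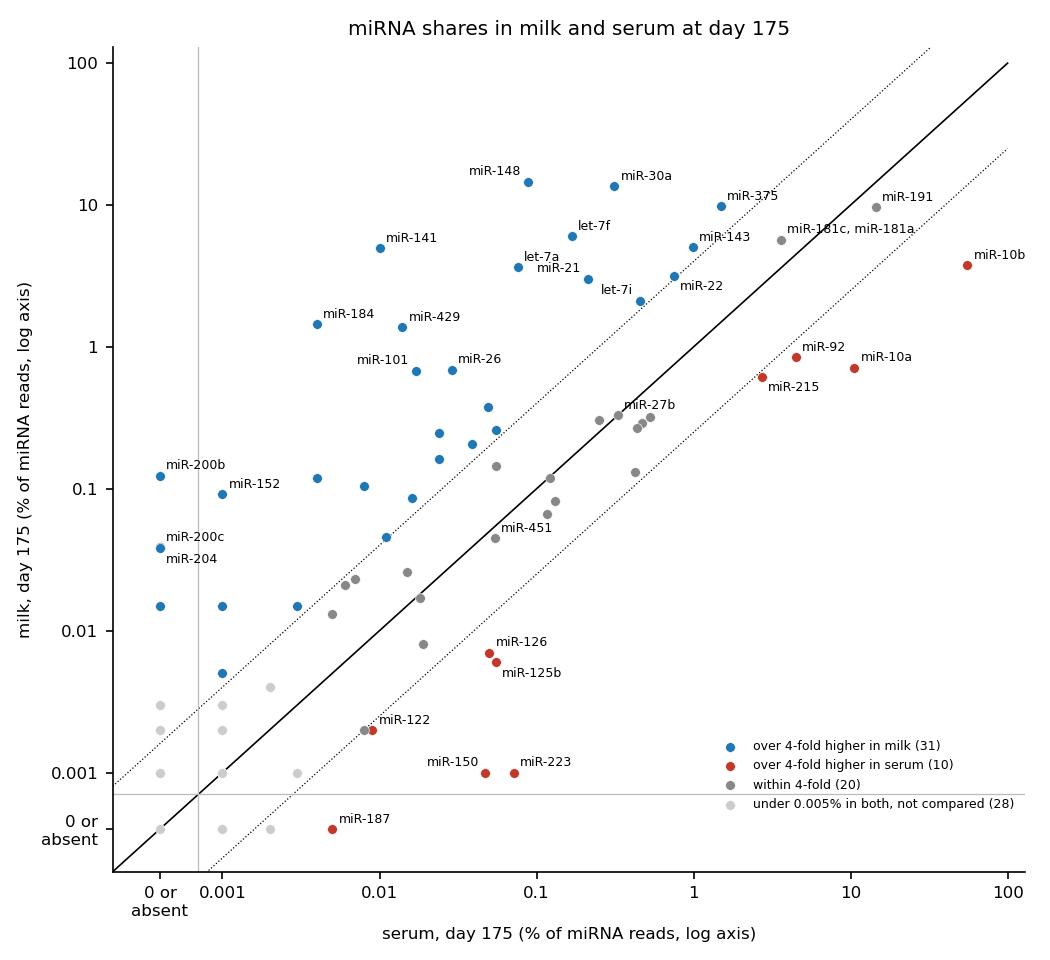
Share of each of the 89 miRNAs in serum (x, % of miRNA reads) and milk (y, %) at day 175, both on log axes, 1 point per miRNA. The solid line marks equal shares, dotted lines 4-fold, and points beyond the grey lines are at 0 or absent in that fluid. Most points above 0.1% in milk lie left of the upper dotted line, and miR-10b, miR-10a, miR-92 and miR-215 lie right of the lower one.

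Since shares of a library add up to a whole, the 55.4% taken by miR-10b lowers every other share of serum. With miR-10b left out of both denominators every log2 ratio falls by 1.11, and the split of 31 higher in milk and 10 higher in serum becomes 19 and 12. The 12 miRNAs that then fall inside 4-fold on the milk side are miR-186, miR-19b, miR-375, miR-103, let-7g, miR-143, miR-139, miR-210, let-7b, let-7i, miR-22 and miR-15a. With miR-191 left out as well the shift is -1.52 and the split is 18 and 17. Under the centred log ratio, which takes each value against the geometric mean of the miRNAs with at least 0.005% in both libraries, the shift is -1.44 and the split is 18 and 19, and in both cases miR-182 falls inside 4-fold as well. No miRNA past 4-fold could change direction under these scalings, since each shifts all ratios alike and by less than 4-fold. The direction did flip for miR-128, miR-130a, miR-27b and the joint miR-181 entry under all 3 of these scalings, for miR-203 and miR-460 under the last 2, and for miR-146b when each library was divided by its listed sum. The order of the ratios does not depend on any of these choices.

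Among families that summed above 0 in both fluids, the most one-sided was the miR-200 family, epithelial miRNAs that repress the transcription factors ZEB1 and ZEB2. Its 4 listed members, of 5 named in the table, were all over 4-fold higher in milk. miR-141 took 4.96% of milk, where it ranked 8th, and 0.01% of serum, where it ranked 44th. Its ratio of 496 (473 to 522 from rounding) was the highest among miRNAs above 0 in both fluids. miR-429 took 1.38% and 0.014%, a 98.2-fold difference. miR-200b had 0.124% and miR-200c 0.039% of milk, and both were listed at 0 in serum, so no fold is given for them. Together the family made up 6.5% of milk and 0.024% of serum, 271-fold (250 to 296). miR-200a had no entry for either fluid in the values used here. The paper lists a form of miR-200a among the miRNAs specific to milk, so this gap need not mean absence from milk. The ratio of miR-141 to miR-429 was 3.61 in milk and 0.71 in serum.

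The wider list of epithelial miRNAs adds miR-203, known from stratified epithelia, at 0.145% and 0.055%, within 4-fold, and miR-205a at 0.001% and 0.003%. The list as a whole had 6 of 8 members listed and summed to 6.65% of milk and 0.082% of serum. In such fluids, fewer cells that release a miRNA and less of it released by each cannot be told apart. miR-184, known from the epithelia of the cornea and lens, had 1.45% of milk and 0.004% of serum, 362-fold (322 to 414). Among the folds given, this was next to that of miR-141. miR-184 ranked 14th in milk and 52nd in serum.

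miR-148, whose known targets include DNA methyltransferases and which is abundant in the milk of other mammals, was the leading miRNA of milk at 14.6% and ranked 23rd in serum at 0.088%, a 166-fold difference. Its relative miR-152 had 0.092% and 0.001%, which gives 92-fold but with a rounding interval from 61 to 185. miR-30a, a regulator of autophagy, was second in milk with 13.7% and had 0.313% of serum, 43.7-fold less. It was the only listed member of its family of 5. These 2 leading miRNAs of milk thus made up little of serum.

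miR-375, known from pancreatic islets and secretory epithelia, ranked high in both fluids. It ranked 3rd in milk with 9.78% and 7th in serum with 1.49%, a 6.58-fold difference. miR-101 and miR-26, both known to repress the chromatin regulator EZH2, had 0.681% and 0.692% of milk and differed 40.1-fold and 23.9-fold from serum. miR-340 had 0.015% and 0.001%, 15-fold with a rounding interval from 9.67 to 31.

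The let-7 family, which restrains LIN28, HMGA2 and RAS genes, was higher in milk throughout. All 6 listed members, of 9 named, were over 4-fold higher in milk, and the family summed to 12.4% of milk and 0.796% of serum, 15.6-fold. The size of the difference varied among members. let-7a had 3.65% and 0.076% (48.0-fold), let-7f 6.04% and 0.168% (36.0-fold) and let-7d 0.119% and 0.004% (29.8-fold, 26.3 to 34.1). let-7g, let-7b and let-7i differed only 5.33-fold, 4.73-fold and 4.67-fold. The family thus fell into members with ratios above 29 and members with ratios near 5, and let-7i, at 0.454%, was the leading let-7 of serum while let-7f led in milk. let-7 members differ by few bases, and the counting could have split reads between them. With miR-10b left out of the denominators the last 3 dropped inside 4-fold, a shift too small to turn their direction.

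Several miRNAs that are expressed in many tissues were also higher in milk. miR-21, which represses PDCD4, had 3.04% of milk and 0.212% of serum, 14.3-fold. miR-143, typical of smooth muscle and stroma, had 5.07% and 0.991%, 5.11-fold, and ranked 7th in milk and 8th in serum. Its cluster partner miR-145 was at 0.001% in both, so that miR-143 stood 5067 to 1 against it in milk and 991 to 1 in serum, with a denominator of a single rounding step. miR-214, the other listed miRNA of the smooth muscle and stroma list, was at 0 in serum and absent from milk. miR-22 had 3.18% and 0.749%, 4.25-fold.

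Among less abundant miRNAs, the cluster of miR-182, miR-183 and miR-96, known from sensory epithelia, summed to 0.269% of milk and 0.03% of serum, 8.97-fold. Within it miR-182 differed 10.3-fold, miR-183 3.50-fold, and miR-96 was listed in milk alone at 0.001%. miR-103 and miR-107, relatives that act on lipid and glucose metabolism, summed to 0.087% and 0.016%, with miR-107 listed in milk alone. miR-186 had 0.378% and 0.049% (7.71-fold), and miR-15a 0.046% and 0.011%. miR-210, the classic hypoxia miRNA, and miR-139 both gave a ratio of 5, but at 0.015% and 0.005% of milk their intervals ran from 4.14 to 6.20 and from 3 to 11. miR-29a, a repressor of collagens, had 0.002% and 0.001%, below the limit for a comparison.

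On the serum side the miRNAs encoded within HOX clusters took the largest shares. miR-10b had 55.4% of serum and 3.76% of milk, 14.7-fold, and miR-10a had 10.6% and 0.714%, 14.8-fold. The third listed member, miR-196b, was at 0.001% of serum and absent from milk. Together they took 66.0% of serum and 4.47% of milk. miR-10b and miR-10a kept nearly the same proportion to each other in both fluids, 5.26 to 1 in milk and 5.25 to 1 in serum. The proportion was 7.08 and 9.60 in the libraries of day 120. The 2 differ by few bases, so that part of the reads of one could be counted as the other. Despite its lower share, miR-10b still ranked 9th in milk.

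miR-92 ranked 4th in serum with 4.49% and 16th in milk with 0.849%, 5.28-fold. It belongs to clusters known for driving proliferation, and the compared members differed in direction. miR-25, which is known to share the seed of miR-92, had 0.528% and 0.319%, 1.66-fold higher in serum. miR-19a and miR-19b were 13.1-fold and 6.71-fold higher in milk, with 0.105% and 0.161% there. In sum miR-19a and miR-19b were 8.31-fold higher in milk while miR-92 and miR-25 were 4.29-fold higher in serum. The fifth listed member, miR-20, had 0.003% of milk and was absent from serum, and the other 11 of the 16 members named were listed in neither. miR-215, known from gut and kidney, ranked 6th in serum with 2.71% and had 0.616% of milk, 4.40-fold less. The related miR-192 and miR-194 were not listed.

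Markers of blood cells were a small part of both libraries. The white blood cell list had 3 of 4 members listed and summed to 0.12% of serum and 0.002% of milk. miR-223, a myeloid miRNA, had 0.072% of serum and 0.001% of milk, 72-fold and no less than 47.7-fold within rounding. miR-150, typical of mature lymphocytes, had 0.047% and 0.001%, 47-fold (31 to 95). miR-142, found in all blood cell lineages, was at 0.001% of serum and absent from milk, and miR-155 was listed in neither. Of the erythroid miRNAs, only miR-451 could be compared. It had 0.054% of serum and 0.045% of milk, 1.20-fold higher in serum, and miR-144 had 0.001% and 0.002%. miR-486 and miR-451a, the other members of that list, were not listed. The log2 ratio of miR-451, -0.26 as deposited, was -1.37 without miR-10b, -1.79 without miR-191 as well and -1.71 under centring. At day 120 miR-451 had 0.041% of serum and 0.002% of milk, and miR-223 0.03% and 0.008%, so the order of these 2 ratios was the opposite there.

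Markers of endothelium and liver were also higher in serum. The endothelial miR-126 had 0.05% of serum and 0.007% of milk, 7.14-fold (6.6 to 7.77). The hepatocyte miR-122 had 0.009% and 0.002%, 4.5-fold (3.40 to 6.33). The striated muscle miRNAs miR-1, miR-133a and miR-499 were listed at 0.001%, 0.002% and 0.001% of serum and were absent from milk. miR-125b, which acts in differentiation of many cell types, had 0.055% of serum and 0.006% of milk, 9.17-fold (8.38 to 10.1). miR-187, at 0.005%, was the only compared miRNA of serum that was absent from milk. Of neural markers 4 of 10 were listed and summed to 0.029% of milk and 0.017% of serum, a direction that flips under the 3 scalings without miR-10b or by centring. It rests on miR-128 at 0.026% and 0.015%. miR-132 and miR-212, a pair induced by CREB, were at 0.001% or absent, miR-218 had 0.002% of milk alone, and the defining neural miRNAs miR-9 and miR-124 were listed in neither.

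**Figure D3:**
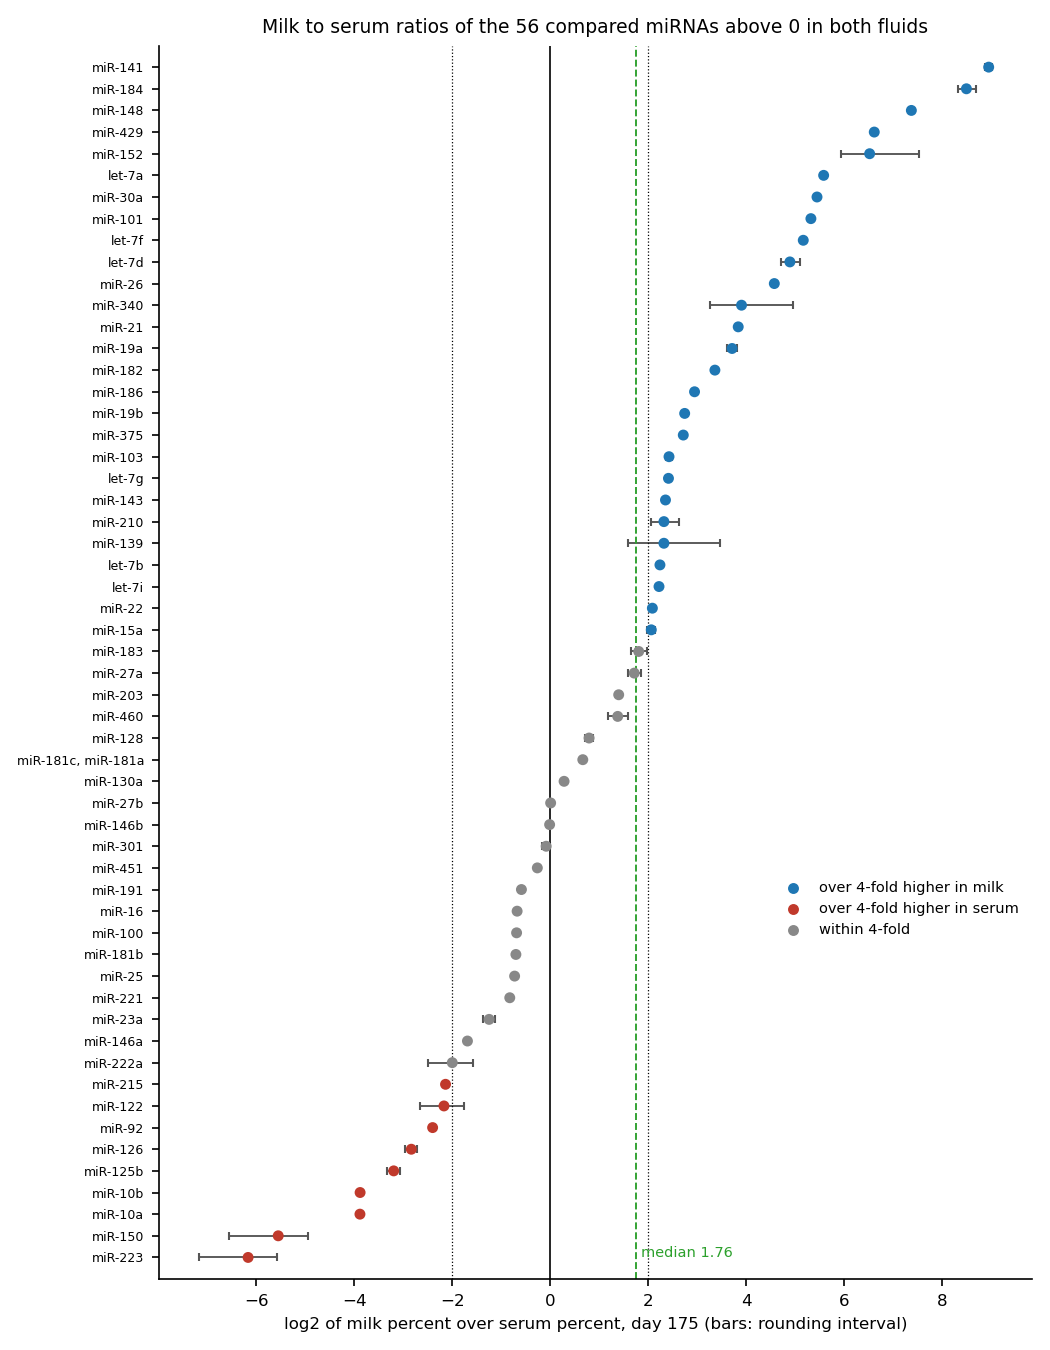
Log2 of the milk percent over the serum percent at day 175 (x) for the 56 compared miRNAs above 0 in both libraries (y), with the rounding interval as bars. The solid line marks equal shares, dotted lines 4-fold and the dashed line the median of 1.76. The ratios run from -6.17 for miR-223 to 8.95 for miR-141. The intervals are wide for miRNAs at 0.001% in the lower fluid.

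Some abundant miRNAs differed little in their deposited shares. miR-191 was the second miRNA of serum with 14.5% and the fourth of milk with 9.66%, 1.5-fold. Its log2 ratio of -0.59 became -1.70 without miR-10b and -2.03 under centring, which is past 4-fold. The entry shared by miR-181a and miR-181c, miRNAs that act in lymphocyte development, had 5.70% of milk and 3.59% of serum, and miR-181b 0.267% and 0.434%, so the family as a whole differed 1.48-fold towards milk, a direction that flips without miR-10b and under centring. Closest to equality was miR-27b, with 0.33% of milk and 0.328% of serum, which also flips under those scalings. miR-146b had 0.12% and 0.121%, and miR-130a 0.303% and 0.249%. In the deposited shares all of these were among the 20 of 61 compared miRNAs within 4-fold.

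Some relatives of these miRNAs differed more, though miR-301, grouped with miR-130a, did not. miR-146a, a brake on NF-kB signalling that differs little from miR-146b, was 3.23-fold higher in serum, so that it exceeded miR-146b 1.10-fold in milk and 3.52-fold in serum. miR-27a was 3.29-fold higher in milk, miR-23a 2.38-fold higher in serum, and miR-23b was listed in milk alone at 0.003%. The clusters that hold miR-23, miR-27 and miR-24 summed to 0.364% and 0.354%, with miR-24 listed in neither. miR-16 was 1.6-fold higher in serum although its cluster partner miR-15a was 4.18-fold higher in milk. miR-221 and miR-222a, which repress the receptor KIT, were 1.77-fold and 4-fold higher in serum. miR-100 was 1.61-fold higher in serum, below the 9.17-fold of miR-125b, with which it shares a cluster in mammals. miR-301 had 0.017% and 0.018%. miR-460 had 0.013% of milk and 0.005% of serum.

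Grouped by family, 18 lists were summed, and 17 were above 0 in both fluids. Against the 31 of 61 compared miRNAs that were over 4-fold higher in milk and their median log2 ratio of 1.76, the let-7 family had 6 of 6 and a median of 3.65. The miR-200 family had 4 of 4, with a median of 7.79 over the 2 members above 0 in serum. Of these members, let-7d (0.004% of serum), miR-200b and miR-200c (both at 0 in serum) passed the minimum share through milk alone. Their calls thus rest on the fluid that admitted them. The HOX cluster list had none of 2 and a median of -3.88, and the miR-23, miR-27 and miR-24 list none of 3 with a median of 0.01. The clusters of miR-17 and its relatives had 2 of 4 with a median of 1.01 although their sum was 3.51-fold higher in serum, since miR-92 carries most of the sum. The members of a family here were taken by name.

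**Figure D4:**
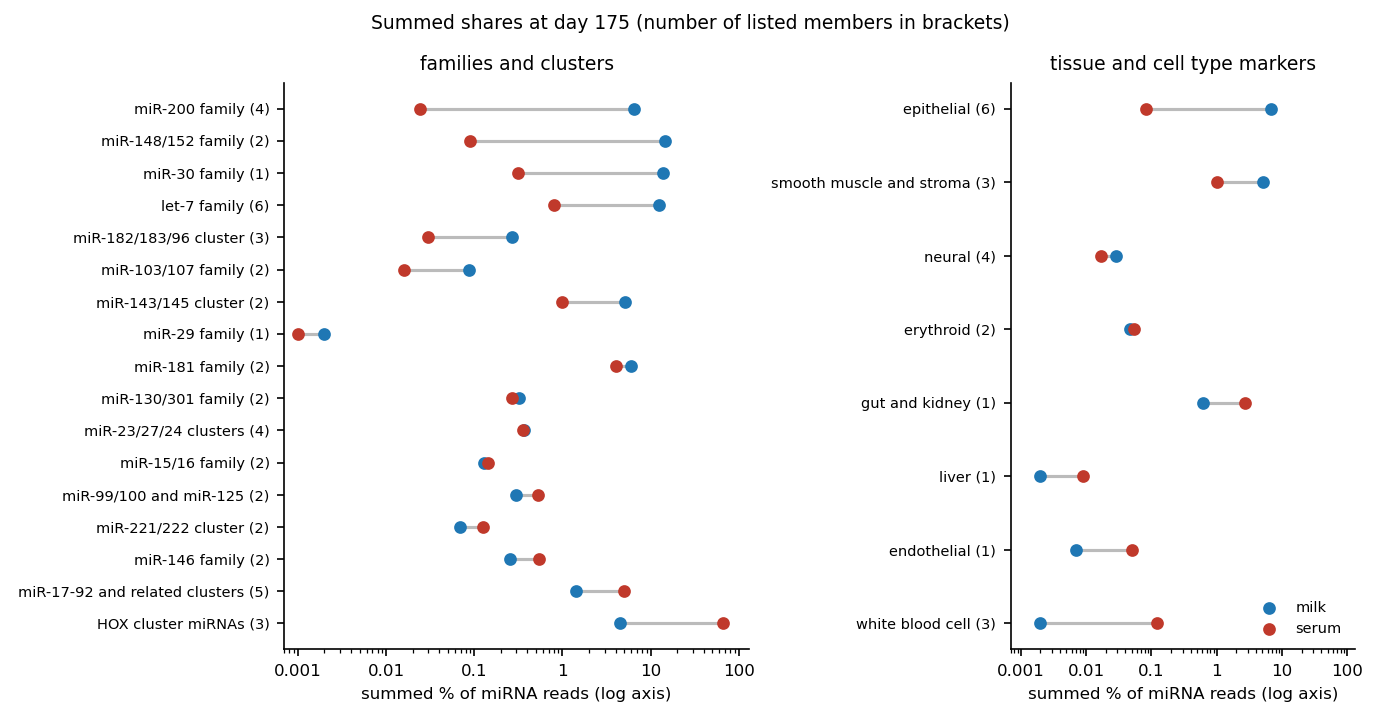
Summed share of the listed members of each family or cluster (left) and each tissue marker list (right) in milk (blue) and serum (red) at day 175, % of miRNA reads on log axes, with the number of listed members in brackets. Lists at 0 in one fluid are left out. Points of one list lie farthest apart for the miR-200 family, at 6.5% and 0.024%. For the lists of miR-181, miR-130 and miR-301, miR-29, miR-23 with miR-27, and neural markers the order flips without miR-10b or under centring.

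Fluid-specific entries were few and low. In milk 14 miRNAs were listed that were absent from serum. miR-204, an epithelial miRNA of the eye and kidney, led with 0.038% (rank 44), and miR-190b had 0.015%. The others had 0.003% (miR-20, miR-23b and miR-32), 0.002% (miR-7, miR-190a, miR-218 and miR-338) or 0.001% (miR-34a, miR-96, miR-107, miR-1541 and miR-1549). In serum 8 were listed that were absent from milk, led by miR-187 at 0.005%. miR-133a had 0.002%, miR-1, miR-132, miR-142, miR-196b and miR-499 had 0.001%, and miR-214 was at 0. Only 3 of these 22 passed the limit for a comparison, so most of the difference between the fluids lay in miRNAs present in both. miR-147b, miR-31, miR-144, miR-455 and miR-1546 were listed in both at 0.004% or less.

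The libraries of day 120, also phase 2B, give a separate pair of milk and serum for the same comparison. Of the 31 miRNAs over 4-fold higher in milk at day 175, 27 could be compared at day 120, and 20 of them were higher in milk there too, 13 by over 4-fold. The 7 on the other side were miR-143, miR-21, let-7i, miR-101, miR-182, miR-19b and miR-19a. Of the 10 higher in serum, 9 could be compared and all 9 were higher in serum at day 120, 7 of them by over 4-fold. In the deposited shares the serum side thus kept its direction in every miRNA that could be compared and the milk side in most. Leaving out miR-10b would lower every other ratio of day 120 too, and these counts were not repeated that way. Such a shift could turn miRNAs of the milk side but not of the serum side. It took the log2 ratio of miR-191 at day 120 from 2.93 to 1.28. On the milk side, deposited log2 ratios at day 120 were as low as 0.35 for miR-15a, 0.68 for miR-186, 0.72 for let-7g and 1.26 for miR-22. On the serum side miR-92 was nearly equal at day 120, with 2.63% of serum and 2.50% of milk. miR-141 had 0.684% of milk and 0.002% of serum at day 120, and miR-10b 3.42% and 69.2%.

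The spread between days of one fluid puts these ratios in scale. Between milk and serum of day 175, 67.2% of 61 miRNAs differed over 4-fold, and at day 120 51.7% of 60. Between the milk libraries of the 2 days 37.3% of 59 did, and between the serum libraries 19.3% of 57. All of these are in the deposited shares. The 31 higher in milk and 10 higher in serum behind the 67.2% became 19 and 12 with miR-10b left out of the denominators. The other percentages and the medians below were not rescaled. The median difference was taken over all miRNAs above 0 in both libraries of a pair, without the minimum share. Between the fluids it was 4.58-fold at day 175 (64 miRNAs) and 3.13-fold at day 120 (55). It was 2.95-fold between the milk libraries (56) and 1.73-fold between the serum libraries (63). The days are not replicates, since the fluids may change between them.

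**Figure D5:**
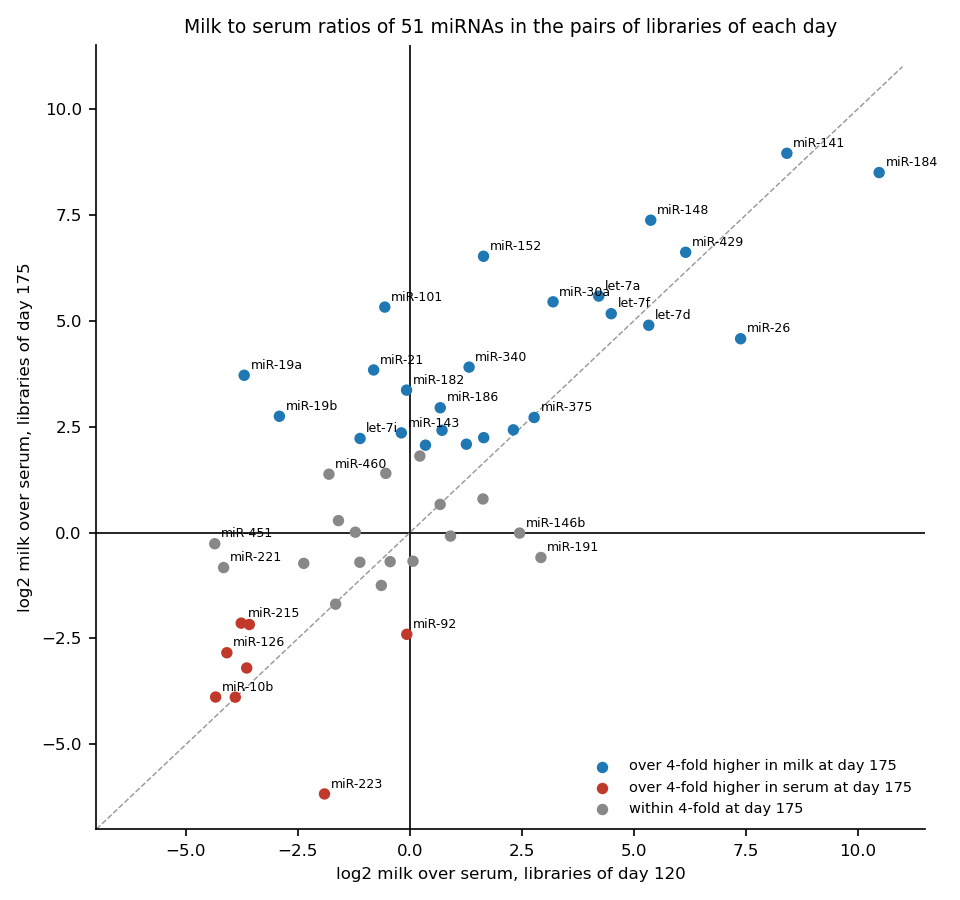
Log2 milk to serum ratio at day 120 (x) and day 175 (y) of the 51 miRNAs compared on both days and above 0 in all 4 libraries, 1 point per miRNA, coloured by the call at day 175. The dashed line marks equal ratios. miR-141, miR-184 and miR-429 lie high on both axes, and miR-19a and miR-19b lie above 0 at day 175 and below 0 at day 120.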

How the data were processed

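RNA of skim milk and of serum was isolated by the authors, who made small RNA libraries of gel-cut fragments, sequenced them on an Illumina HiSeq, trimmed adaptors and assigned reads to known miRNAs of miRBase with miRanalyzer. The deposited values are percent of the annotated miRNA reads of a library, which the authors computed per library and rounded to 3 decimals. No correction between fluids beyond this share was made, and 0 columns of per-sample values were left unused. Ratios, ranks and sums were computed with Python 3.11.15, numpy 2.4.6, pandas 2.3.3 and scipy 1.17.1, and the calculation was tested on simulated data. miRNAs named are those with at least 1% in either library, the 10 largest and 10 smallest ratios, the listed members of the family and marker lists, those listed in 1 fluid alone, and those with at least 0.1% and a ratio from 0.8 to 1.25. miR-26, miR-139, miR-186, miR-210, miR-340, miR-460 and those at 0.004% or less, which lie outside this rule, were named after their values were seen. The members and lists were chosen with earlier results of these data known. Mature wallaby sequences were not used here. Alternatives were other fold limits, minimum shares and scalings.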

Additional observations from a re-analysis of the deposited data

Results flagged for a closer look

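Of the 51 miRNAs compared on both days and above 0 in all 4 libraries, 13 lay on opposite sides of equal shares at day 175 and day 120 by more than rounding. The difference between the days was not tested, since each day has 1 library per fluid. In 11 of them milk was higher at day 175 and serum at day 120. With miR-10b left out of the denominators at both days 10 of the 13 lay on opposite sides, without miR-130a, miR-27b and miR-16. Under centring at both days 8 of them did, without miR-203 and miR-460 too. Only these 13 were rescaled, so their number could only fall. Others of the 51 that a scaling brings to opposite sides were not counted. The change of the log2 milk to serum ratio from day 120 to day 175 was 7.41 for miR-19a (-3.70 to 3.71), 5.66 for miR-19b (-2.91 to 2.75) and 5.88 for miR-101 (-0.56 to 5.32). It was 4.65 for miR-21 (-0.81 to 3.84), 3.44 for miR-182 (-0.07 to 3.36), 3.33 for let-7i (-1.11 to 2.22) and 3.19 for miR-460 (-1.81 to 1.38). It was 2.55 for miR-143 (-0.19 to 2.35), 1.94 for miR-203 (-0.54 to 1.40), 1.88 for miR-130a (-1.59 to 0.28) and 1.23 for miR-27b (-1.22 to 0.01). In the other 2, serum was higher at day 175 and milk at day 120, with a change of -3.51 for miR-191 (2.93 to -0.59) and -0.75 for miR-16 (0.07 to -0.68). For miR-19a, the share of milk was 0.004% at day 120 and 0.105% at day 175, and that of serum 0.052% and 0.008%, so both fluids contributed to the change.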

How the results depend on the processing

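With no replicates, changes of more than 1.5-fold in a count or a median, or of 0.1 in a correlation, are listed. The count of 31 miRNAs higher in milk became 19 at a limit of 10-fold, 19 with miR-10b left out of the denominators, 18 with miR-191 left out too and 18 under the centred log ratio. The count of 10 higher in serum became 5 at 10-fold, 16 with all miRNAs of at least 0.001%, 17 without miR-10b and miR-191 and 19 under the centred log ratio. The median log2 ratio of 1.76 became 0.70, 0.41 and 0.32 under these 3 scalings, the first 2 over 55 and 54 miRNAs since those left out drop from the median, and 1 with a pseudocount of 0.001% over all listed miRNAs. The Spearman correlation of 0.74 became 0.59 with at least 0.005% in both. The split at 2-fold was 35 and 13, and 29 and 9 were above 4-fold over the whole rounding interval. Of the 29 miRNAs that kept their direction at day 120, 28 were on the same side under the centred log ratio at that day. The larger shift from leaving out miR-10b was not applied to these 29. Of the 13 miRNAs on opposite sides at the 2 days, 10 stayed so without miR-10b and 8 under centring at both days. Only these 13 were rescaled, so miRNAs that a scaling brings to opposite sides were not counted. The alternatives that rescale day 120 were chosen after seeing the data. No ratio past 4-fold could change direction, since every scaling shifted all ratios alike by less than 4-fold. Families by shared seed could not be run without mature sequences. No paired analysis was possible because each fluid has 1 library at this day. Shares of 0.001% are 1 rounding step, which limits the ratios of miR-223, miR-150, miR-152, miR-340 and miR-139.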
